A study of Mus musculus with 15 samples.

Results

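The comparison described here is the trend of gene expression over the number of intact alleles of Plag1 in the mouse epididymis. It uses 15 of the 15 libraries of the series, each from the whole epididymis of 1 mouse aged 7 weeks. There were 5 wild-type mice (WT, 2 intact alleles), 5 heterozygotes (HET, 1 intact allele) and 5 knockouts (KO, 0 intact alleles). The strain is labelled Brown Swiss for all 3 genotypes, and no treatment is given. The labels do not say which part of Plag1 the knockout disrupts, whether it is restricted to a cell type, or how the animals were related. P-values therefore measure the spread between these animals. A gene entered the trend if it had enough counts, which left 19388 genes. For each gene the log2 level was fitted to a straight line over lost alleles, so the slope is the log2 change for each allele lost, and a negative slope means that the gene was lower with fewer intact alleles.

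Plag1 encodes a zinc finger transcription factor that binds GC-rich DNA and is best known for activating growth genes, among them the insulin-like growth factor Igf2. It is an oncogene in salivary gland tumours, and mice that lack it are small and have reduced fertility. The epididymis is the coiled duct in which sperm mature and are stored. Its epithelium of principal, basal and clear cells is surrounded by smooth muscle and by a stroma of fibroblasts, vessels and macrophages. In a gene that follows the number of alleles on a log scale, HET lies midway between WT and KO. In a gene for which 1 intact allele is enough, HET lies with WT, and in a gene for which 1 is too few, HET lies with KO.

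The WT libraries held 20.3 to 27.8 M counts, the HET libraries 23.6 to 33.8 M and the KO libraries 25.3 to 42 M. The tissue markers matched the labelled organ, since 7 markers of principal cells ran from 176 to 28772 CPM (counts scaled to the size of the library) in the WT mean, and 3 of basal cells from 58.3 to 139 CPM. Clear cells (3 markers, 12.8 to 85.3 CPM) and smooth muscle (3 markers, 200 to 932 CPM) were also present. One library stood apart from its genotype: KO-738 lay nearer to HET than to the other KO libraries over the trend genes. Its Plag1 level was the highest of the KO libraries, at 9.36 CPM. KO-739, which did not lie near HET, was close to it at 9.16 CPM. Ribosomal RNA genes took 1.49% of the counts in KO-738 and 1.49% in HET-693, against 0.0957% to 0.607% in the other 13. KO-739 held 898 CPM of the skeletal muscle myosin Myh1, where the remaining KO libraries held 1.39 to 2.90 CPM. The animal numbers fall into 2 ranges, and the 5 numbered below 700 are 2 HET animals (HET-692 and HET-693) and 3 KO animals (KO-694, KO-695, KO-696). No WT animal is among them, so a difference between the ranges and a difference between genotypes can be told apart only in part.

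Plag1 itself (NCBI Gene 56711; GRCm38.p6 chromosome 4, 3898769 to 3938430) came first as a check of the labels. Its level was 11.9, 13, 12, 12.5 and 14 CPM in the WT libraries. The HET libraries held 9.62, 10.6, 10.5, 8.11 and 11.8 CPM, and the KO libraries 8.17, 6.99, 7.90, 9.36 and 9.16 CPM. Every HET and KO library lay below every WT library, while HET and KO overlapped through HET-718 at 8.11 CPM. The mean was 12.7 ± 0.869 CPM (SD, n = 5) in WT, 10.1 ± 1.38 in HET and 8.32 ± 0.972 in KO, so HET stood at 80.0% and KO at 65.6% of WT. The slope was -0.30 ± 0.05 log2 per lost allele (SE; edgeR adjusted p = 0.00505). The step from WT to HET was -0.32 ± 0.10 and that from HET to KO was -0.29 ± 0.10, and HET departed from the midpoint by -0.02 ± 0.09 (edgeR adjusted p = 0.963). Counts of Plag1 remained in every KO library, from 211 to 342, and whether they come from outside the disrupted part was not tested. Of the other PLAG family members, Plagl1, an imprinted zinc finger gene, fell by 0.16 ± 0.04 for each allele (edgeR adjusted p = 0.0336). That call was lost in 8 of the 15 fits that leave out 1 library, and with the animal number range as a term (edgeR adjusted p = 0.170). Plagl2 had a slope of -0.04 ± 0.03 (edgeR adjusted p = 0.467).

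The trend passed the threshold (edgeR adjusted p under 0.05) in 1182 genes, which is 6.1% of those tested. Of these, 907 rose with each lost allele (4.68%) and 275 fell (1.42%). At an unadjusted p under 0.05 there were 4532 genes (23.4%). The median slope was 0.38 among the rising genes and -0.24 among the falling ones. Between WT and KO, 312 of the rising and 30 of the falling genes differed at least 2-fold. The count depended on single animals: it was 240 without KO-696, 440 without KO-694, 446 without KO-695 and 651 without KO-739. Without WT-709 it was 568, without WT-723 699 and without WT-720 702, while without KO-738 it was 2451. All of the 1182 genes that could be tested in each of these fits kept their sign. They were chosen with these same libraries, so this agreement is no separate check. Of the 121 called genes named here 48 stayed past the threshold in all 15 such fits and 73 were lost in at least 1. Counts of called list members are therefore given below beside those without KO-696, the library whose absence cost the most calls, and with the animal number range as a term. With the animal number range as a term 207 genes were called, of which 183 were among the 1182. Among the 10 animals numbered 700 and above edgeR called 0 genes (3106 at an unadjusted p under 0.05). There 1164 of 1166 genes, chosen with these libraries included, kept their sign, with a median slope 0.772 times as large. The only KO animals among these 10 were KO-738, which lay near HET, and KO-739, which was high for skeletal muscle genes.

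**Figure D1:**
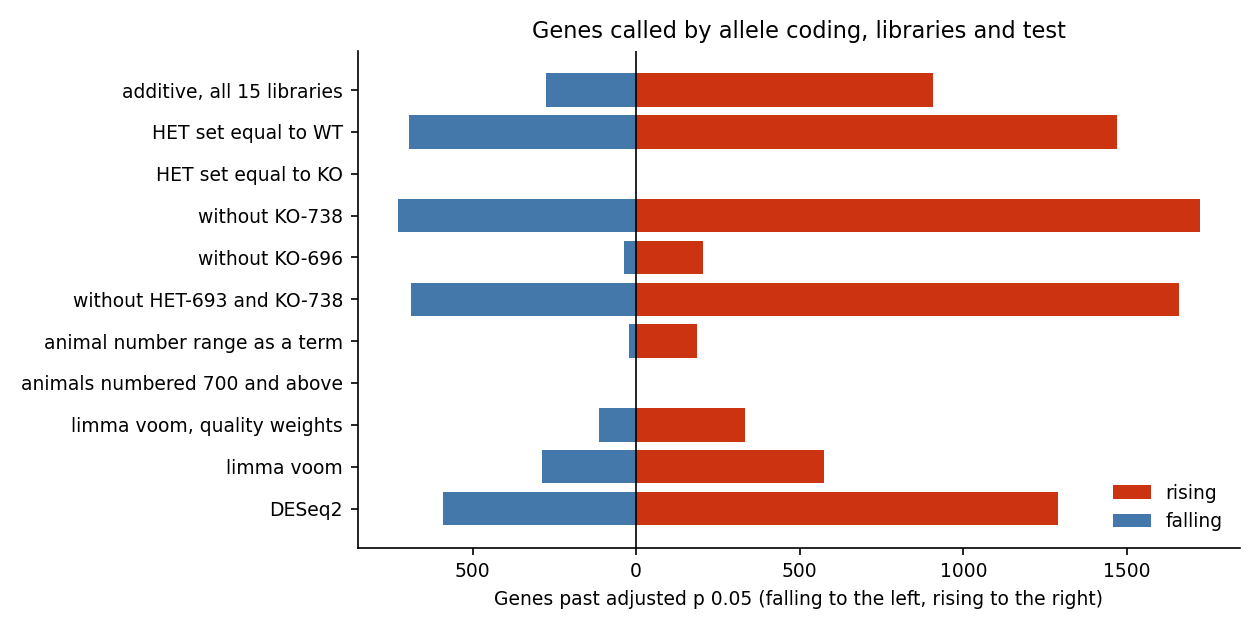
Number of genes past an edgeR adjusted p of 0.05 in the trend over Plag1 alleles (horizontal axis, falling genes to the left, rising to the right). Bars show the main fit and the fits that code HET as WT or as KO. Others leave out KO-738, KO-696, or both HET-693 and KO-738. The rest are the animal number range as a term, animals numbered 700 and above, DESeq2, and limma voom with and without quality weights. The DESeq2 and limma bars use the adjusted p of those tools. The total runs from 0 (animals numbered 700 and above, or a fit that codes HET as KO) to 2451 (without KO-738), and rising genes outnumber falling ones wherever any gene is called.

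The genes that rose and those that fell differed in kind. Rising genes had a median level of 4.95 CPM, against 18.5 CPM for falling genes and 11.6 CPM for all tested genes. Of the rising genes 94.8% were protein coding and 2.98% were long noncoding, against 79.7% and 12.2% of all tested genes, while the falling genes had 77.5% and 13.5%. The median gene length on the genome was 27746 bp for rising and 20602 bp for falling genes, against 18659 bp for all. These shares describe the genes called, since the power of the test also depends on a gene's level. Within 10 Mb of Plag1, 64 genes were tested, Plag1 itself among them, of which 2 rose. The 1 that fell was Plag1. Over the autosomes and chromosome X the share of tested genes called ran from 4.59% on chromosome 5 to 7.93% on chromosome 1, with 4.90% on chromosome 4, which carries Plag1. Of 16 mitochondrial genes and 5 genes of chromosome Y, 0 were called.

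The first question for each trend gene was where HET lay between WT and KO. The position of HET is given as a share of the WT to KO difference on the log2 scale, with 0 at the WT mean and 1 at the KO mean. Mainly WT and KO chose the genes, and HET entered the choice through the spread around the line, so the positions are a description. Over the 907 rising genes the median position was 0.24 (quartiles 0.14 and 0.35). In 473 of them HET lay below 0.25, in 430 (47.4%) between 0.25 and 0.75, and in 4 above 0.75. HET lay nearer to WT than to KO in 822 of the 907 (90.6%). Over the 275 falling genes the median position was 0.32 (quartiles 0.19 and 0.44), with 108 below 0.25, 159 (57.8%) between and 8 above 0.75. Nearer to WT than to KO were 225 of these 275 (81.8%). The median change of the rising genes was 0.18 from WT to HET and 0.54 from HET to KO. For the falling genes these medians were -0.14 and -0.32. These medians thus differed in size, but over genes that the slope chose, so their difference is a description too. From WT to HET, 853 of the 907 rising and 267 of the 275 falling genes moved in the direction of the trend. Over all genes tested, 10245 of 19388 were higher in HET than in WT. The WT libraries enter both this step and the slope that chose the genes, so the match is a description and no separate result. On the CPM scale in place of log2, the median positions were 0.176 and 0.360.

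**Figure D2:**
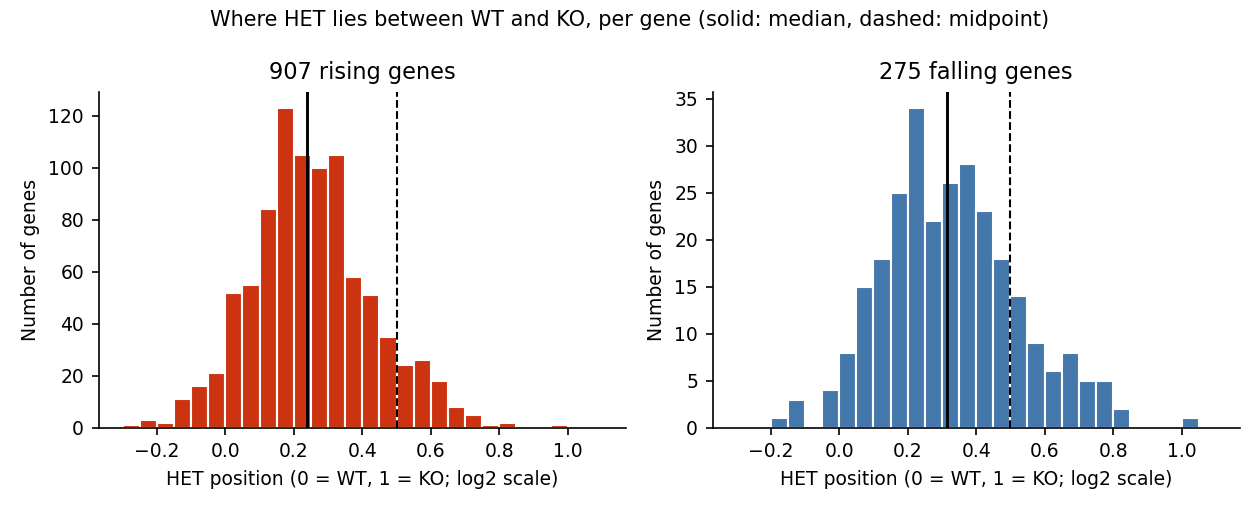
Histograms of the position of HET between WT (0) and KO (1) on the log2 scale for the 907 rising and 275 falling genes, with the number of genes on the vertical axis; the solid line is the median and the dashed line the midpoint. Both medians, 0.24 and 0.32, lie on the WT side of the midpoint.

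No gene departed from the midpoint after adjustment (0 of 19388 by edgeR, 25 by DESeq2). At an unadjusted p under 0.05 edgeR gave 1521 genes (7.85%), and of the trend genes 139 rising and 22 falling ones departed toward WT at that level, against 1 and 1 toward KO. Over all genes 3.71% lay below and 4.14% above the midpoint at that level. For a single gene, a straight line and a curve toward WT were therefore mostly not distinguishable with 5 animals a genotype. The step from WT to HET gave 0 called genes by edgeR (854, or 4.40%, at an unadjusted p under 0.05) and 1 by DESeq2. The step from HET to KO gave 380 genes (1.96%), of which 312 rose (1.61%) and 68 fell (0.351%). This last count was 0 without HET-735, 3 without HET-715, 5 without KO-696, 6 without HET-693 and 31 without HET-718. It was 154 without KO-695, 172 without KO-739 and 206 without KO-694, and rose to 753 without HET-692 and 2443 without KO-738. A fit that codes HET as WT called 2162 genes, and one that codes HET as KO called 0 (2152 at an unadjusted p under 0.05).

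Single libraries showed how unevenly the genotypes behaved over these genes. For each library the median position over the called genes was taken, again with 0 at the WT mean and 1 at the KO mean. Over the rising genes the 5 WT libraries lay between -0.05 and 0.06, their mean being the reference. HET-692 lay at 0.512, HET-693 at 0.166, HET-715 at 0.203, HET-718 at 0.229 and HET-735 at 0.180. KO-694 lay at 1.01, KO-695 at 1.12, KO-696 at 1.28, KO-739 at 1.22 and KO-738 at 0.336. KO-738 therefore lay below HET-692, while the other 4 HET libraries lay between 0.166 and 0.229. Over the falling genes HET-692 and HET-693 lay at 0.407 and 0.403, the other 3 HET libraries between 0.206 and 0.230, and KO-738 at 0.448, against 0.915 to 1.26 in the other KO libraries. The median standard deviation of a gene's log2 CPM was 0.16 in WT, 0.14 in HET and 0.20 in KO. Without KO-738 the median position of HET was 0.197 for rising and 0.214 for falling genes, and without HET-692 it was 0.178 and 0.322. The median stayed on the WT side of the midpoint in every fit in which positions were computed, with a highest value of 0.445.

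**Figure D3:**
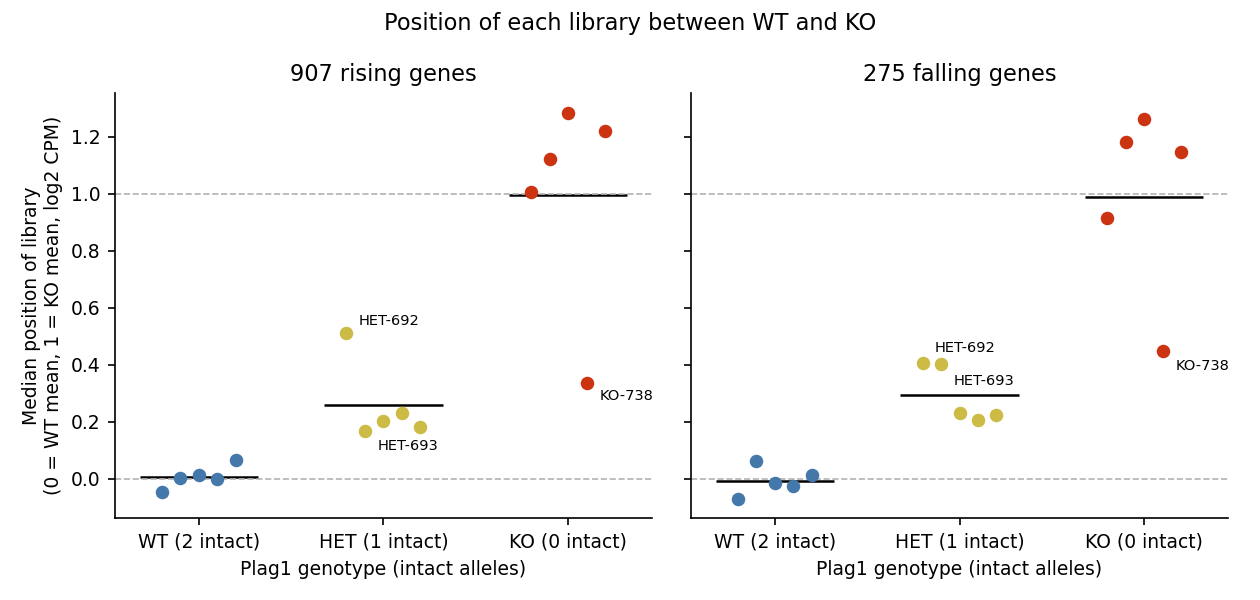
Median position of each library over the 907 rising (left) and 275 falling (right) genes by Plag1 genotype, on the log2 scale with 0 at the WT mean and 1 at the KO mean; each point is 1 library. The HET points lie from 0.166 to 0.512 over the rising genes, and KO-738 at 0.336 lies among them.

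Genes whose 15 libraries fell in genotype order without overlap were rare. Only Tgfbr2 rose in this way (0.00516% of tested genes) and only Evx1os fell in this way (0.00516%). By comparison, all KO libraries lay above all WT libraries in 551 genes (2.84%) and below them in 266 (1.37%). All HET libraries lay above all WT libraries in 139 genes (0.717%) and below them in 63 (0.325%). Among the trend genes HET lay wholly outside the WT range, on the side of the trend, in 38 rising and 12 falling genes.

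Evx1os is a long noncoding RNA gene that overlaps Evx1, a homeobox transcription factor gene, on the opposite strand (GRCm38.p6 chromosome 6, Evx1os 52308389 to 52314832, Evx1 52313498 to 52318389). Evx1os was singled out after its values were seen, because its level is below 1 CPM. The strand setting of the counting is not given in the sources used here, so reads of the pair cannot be told apart where they overlap. Their promoters, 250 bases before to 50 after the annotated start, are shown as RefSeq gives them for GRCm38.p6, because these genes have the steepest fall and the starts lie close together and face in opposite directions. Evx1os is on the minus strand (chr6:52314783-52315082) and Evx1 on the plus strand (chr6:52313248-52313547). The third promoter is that of Rflnb (minus strand, chr11:76027733-76028032), the rising gene with the smallest p-value. In capitals is the match in the Rflnb promoter to GGGGCNNNNNNNGGG, one spelling of the motif that PLAG1 is known to bind, a core followed by a cluster of G.
Evx1os: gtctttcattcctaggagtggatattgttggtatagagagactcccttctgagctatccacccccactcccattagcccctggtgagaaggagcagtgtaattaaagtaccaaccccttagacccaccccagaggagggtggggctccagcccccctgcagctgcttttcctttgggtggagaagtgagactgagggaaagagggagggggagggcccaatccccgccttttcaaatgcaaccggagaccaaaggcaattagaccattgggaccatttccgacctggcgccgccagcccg
Evx1: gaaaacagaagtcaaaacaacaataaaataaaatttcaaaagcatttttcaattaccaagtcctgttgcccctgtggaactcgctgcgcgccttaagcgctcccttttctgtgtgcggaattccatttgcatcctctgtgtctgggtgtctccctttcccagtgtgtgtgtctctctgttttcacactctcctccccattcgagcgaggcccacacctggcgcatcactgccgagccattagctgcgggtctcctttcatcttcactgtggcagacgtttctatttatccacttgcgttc
Rflnb: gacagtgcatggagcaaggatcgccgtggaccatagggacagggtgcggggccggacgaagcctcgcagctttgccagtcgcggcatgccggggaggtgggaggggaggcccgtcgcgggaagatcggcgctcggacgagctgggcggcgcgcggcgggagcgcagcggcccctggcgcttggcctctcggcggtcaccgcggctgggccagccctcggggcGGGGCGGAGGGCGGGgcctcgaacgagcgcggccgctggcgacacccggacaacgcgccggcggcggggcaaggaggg

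The motif was searched on both strands of all promoters of that length in the RefSeq table for the tested genes. It was found in 12.1% of all 17968 promoters (14099 genes), in 8.97% of 814 promoters of rising genes and in 15.4% of 285 promoters of falling genes. The median GC content of the promoters was 58.7%, 54.7% and 58.3%. The Evx1os and Evx1 promoters shown hold 0 matches and that of Rflnb holds 1. Promoters of the rising genes Tgfbr2, Igf1, Tenm3, Aldh1a2 and Scube2, searched in the same way, hold 0 each. These are matches of letters only, and the shares were not tested.

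The level of Evx1os was 0.998, 0.401, 0.607, 0.731 and 1.06 CPM in WT. It was 0.265, 0.181, 0.388, 0.182 and 0.172 CPM in HET, and 0.0387, 0.112, 0.0462, 0.0626 and 0.0299 CPM in KO. Each genotype lay wholly below the one before, although the counts were low, with 8 to 26 in WT, 4 to 11 in HET and 1 to 4 in KO. The slope was -1.77 ± 0.18 per lost allele (edgeR adjusted p = 0.000308), the smallest p-value of all genes, with a step of -1.65 ± 0.31 to HET and a further -1.96 ± 0.44 to KO. Evx1 ran with it, at 0.588 ± 0.223 CPM (SD, n = 5) in WT, 0.167 ± 0.077 in HET and 0.050 ± 0.064 in KO. Its slope was -1.77 ± 0.27 (edgeR adjusted p = 0.00422), and KO-696 and KO-739 held 0 counts of it. HET was at 31.3% of WT for Evx1os and at 28.4% for Evx1. The 80.0% of Plag1 in HET is not a like measure, since Plag1 counts stayed at 65.6% of WT in KO, with 0 intact alleles. Both genes kept their call in every fit that left out 1 library, and with the animal number range as a term (edgeR adjusted p = 0.0107 and 0.0252).

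Tgfbr2 encodes a receptor for transforming growth factor beta, a signal to stromal cells. It stood at 21.5, 23, 23, 20.4 and 21.9 CPM in WT, at 26.20, 23.3, 24.8, 23.4 and 24.0 CPM in HET, and at 32.7, 33.4, 37.0, 26.25 and 45.2 CPM in KO. The order was complete, but KO-738 (26.25 CPM) and HET-692 (26.20 CPM) were nearly equal. The slope was 0.34 ± 0.06 (edgeR adjusted p = 0.00527), with 0.15 ± 0.10 to HET and 0.52 ± 0.10 from HET to KO. Rflnb, which encodes a regulator of filamin, had 22.3, 25.1, 26.3, 19.98 and 24.2 CPM in WT, and 30.1, 28.2, 23.6, 28.6 and 26.7 CPM in HET. In KO it had 38.8, 39.0, 42.5, 34.5 and 43.8 CPM. All KO libraries, KO-738 included, lay above all others, while HET and WT overlapped. Its slope was 0.38 ± 0.05 (edgeR adjusted p = 0.00212), and HET lay at position 0.29.

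**Figure D4:**
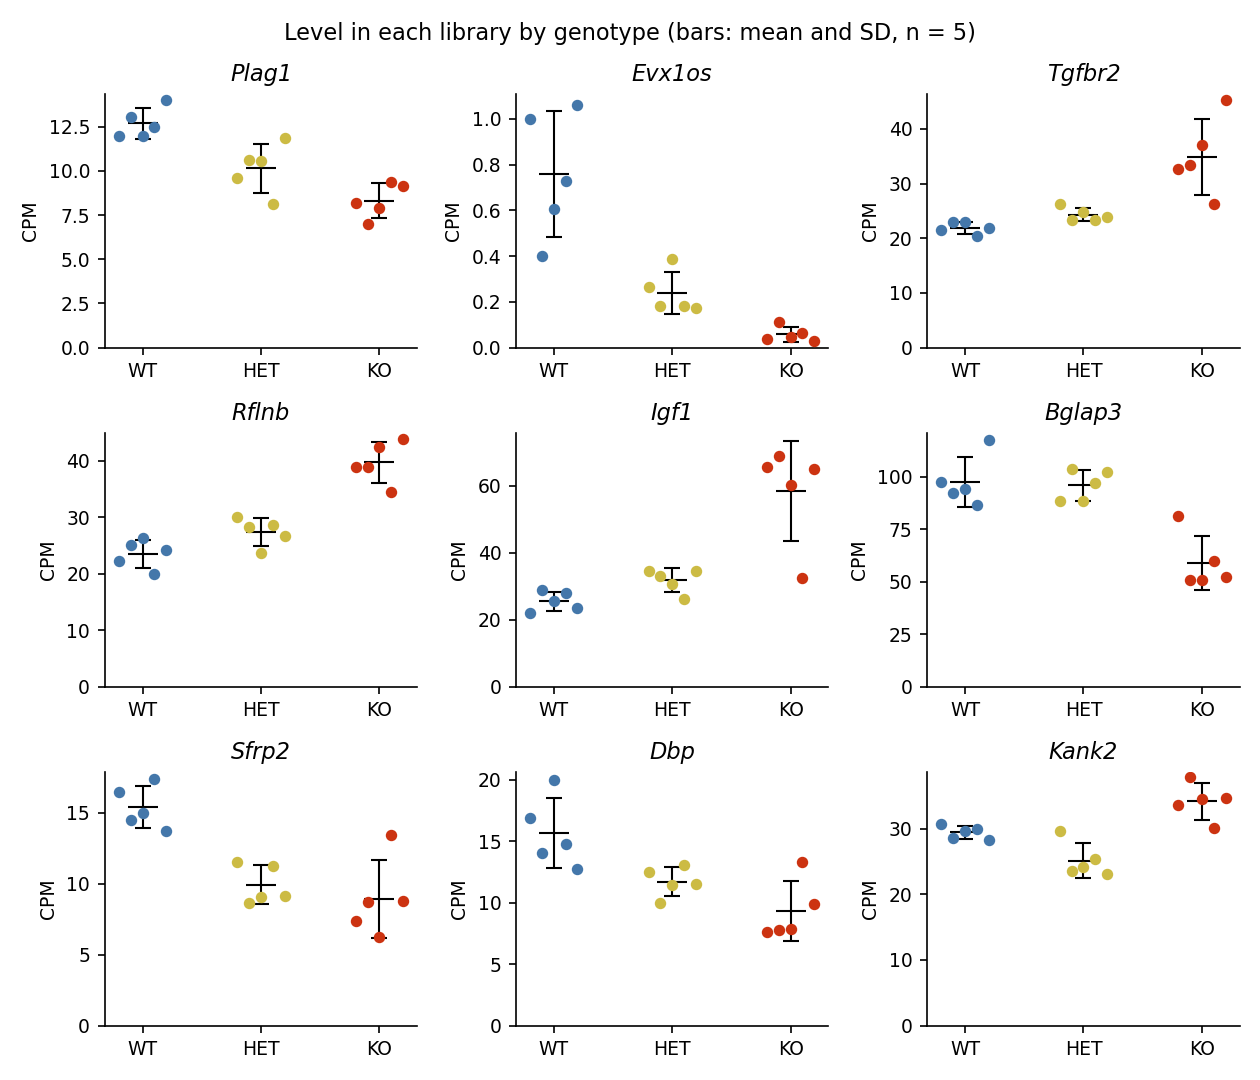
Level in CPM (vertical axis, linear, from 0) of 9 genes in each library by genotype; points are libraries and bars the mean and SD of 5. Plag1 and Evx1os step down at both genotypes, Igf1 and Bglap3 change mainly between HET and KO, Sfrp2 changes mainly between WT and HET, and Kank2 is lowest in HET.

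Rising genes with HET between WT and KO included Penk, Fmod and Rnf144a. Penk, which encodes the precursor of enkephalin peptides, stood at 116, 128, 140, 135 and 122 CPM in WT, 161, 132, 140, 137 and 160 CPM in HET, and 198, 173, 192, 169 and 213 CPM in KO. All KO libraries were above all others, and HET-693 and HET-718 lay within the WT range, with HET-715 level with its top. The slope of Penk was 0.28 ± 0.04 (edgeR adjusted p = 0.00422). Penk lies close to Plag1 on the same chromosome. Whether its trend comes from the changed locus itself was not tested. Fmod, which encodes the collagen-binding fibromodulin, rose from 40.5 ± 3.76 CPM (SD, n = 5) in WT to 48.0 ± 4.41 in HET and 61.3 ± 7.02 in KO, with HET at 0.41. Rnf144a, a ubiquitin ligase gene, rose from 3.13 to 3.68 and 5.93 CPM in the means, with HET at 0.26. In the class with HET close to WT, Tenm3, a cell adhesion gene of the teneurins, had means of 6.78, 7.69 and 12 CPM (position 0.22). Steap4, a metalloreductase gene, had 14.4, 16.4 and 24.4 CPM (0.24), and Scube2, which encodes a secreted protein that helps release hedgehog ligands, had 0.75, 1.02 and 2.62 CPM (0.24). Each of these genes kept its call in every fit that left out 1 library.

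Rising genes with HET beside KO were few. Chd1l, a chromatin remodelling gene, had means of 25.5 ± 1.35, 29.0 ± 1.08 and 29.8 ± 0.97 CPM (SD, n = 5 each), and all 5 HET libraries (27.7 to 29.98 CPM) lay above all WT libraries (23.5 to 26.8 CPM). Its slope was 0.11 ± 0.03 (edgeR adjusted p = 0.0229, and 0.139 with the animal number range as a term), and HET lay at 0.82. Sectm1a, which encodes a membrane protein of leukocyte signalling, had means of 4.004, 5.08 and 5.38 CPM. Ighm, the immunoglobulin heavy chain of B cells, had 0.310, 0.819 and 1.12 CPM. The calls of the last 2 genes were lost in 9 and 6 of the 15 fits that leave out 1 library.

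Among the falling genes with HET between, Hoxb9, a homeobox gene of posterior identity, stood at 89.0, 95.7, 80.7, 85.8 and 85.2 CPM in WT, 77.3, 85.5, 76.0, 74.2 and 77.6 CPM in HET, and 71.5, 63.7, 53.5, 68.0 and 59.9 CPM in KO. KO lay wholly below the others, and HET-693 reached into the WT range. Its slope was -0.23 ± 0.04 (edgeR adjusted p = 0.00453), with HET at 0.34. Mcoln3, an ion channel gene of endosomes and lysosomes, fell from 8.36 ± 0.374 CPM (SD, n = 5) to 6.62 ± 1.10 in HET and 3.79 ± 1.37 in KO (slope -0.57 ± 0.10, edgeR adjusted p = 0.00528). Every HET library, from 5.53 to 7.83 CPM, lay below every WT library, from 7.87 to 8.73 CPM. Slit1, an axon guidance ligand gene, had 22.1 ± 2.11, 18.8 ± 1.4 and 13.9 ± 2.95 CPM. The steepest falling slope with at least 1 CPM was that of Treh, which encodes the trehalose-splitting enzyme of brush borders. Treh stood at 6.84, 5.87, 1.5, 6.61 and 8.39 CPM in WT, 3.26, 1.34, 4.23, 4.08 and 3.05 CPM in HET, and 0.658, 0.895, 0.485, 2.63 and 0.985 CPM in KO. WT-720 was low within WT and KO-738 high within KO. The slope of Treh was -1.17 ± 0.24 (edgeR adjusted p = 0.0145, and 0.0808 with the animal number range as a term).

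Falling genes in which HET stayed with WT included Bglap3, an osteocalcin-related gene. It had 97.2, 92.2, 94.1, 86.5 and 117 CPM in WT, 88.2, 104, 88.1, 97.1 and 102 CPM in HET, and 81.1, 50.9, 50.8, 60.0 and 52.3 CPM in KO. HET lay inside the WT range in all 5 libraries, and KO lay below both. HET stood 0.34 ± 0.10 above the midpoint (edgeR unadjusted p = 0.00456, adjusted p = 0.572). The slope was -0.36 ± 0.08 (edgeR adjusted p = 0.0205, 0.0530 without KO-696 and 0.0617 with the animal number range as a term). Pzp, a protease inhibitor gene, had means of 10.5, 9.04 and 5.37 CPM, and Aspg, an asparaginase gene, 61.6, 54.5 and 35.7 CPM, both at position 0.23. The call of Aspg was lost without KO-696 (edgeR adjusted p = 0.0516).

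The opposite class, falling genes with HET beside KO, was led by Sfrp2, which encodes a secreted antagonist of Wnt signalling. Sfrp2 stood at 16.4, 14.5, 15, 17.4 and 13.7 CPM in WT, 11.6, 8.64, 9.09, 11.2 and 9.12 CPM in HET, and 7.39, 8.72, 6.23, 13.4 and 8.78 CPM in KO. All HET libraries lay below all WT libraries, and KO-738 was the highest of the 10 libraries that had lost an allele. The step to HET was -0.63 and that from HET to KO -0.16, and HET lay at 0.80. Its slope was -0.40 ± 0.08 (edgeR adjusted p = 0.0158, 0.0511 without KO-696 and 0.0937 with the animal number range as a term). Caps2, a calcium-binding protein gene, had means of 5.07, 3.27 and 2.89 CPM, and its call was lost without KO-696 (edgeR adjusted p = 0.0545). Tnc, which encodes the matrix protein tenascin, had 9.56, 6.99 and 6.33 CPM, and Gpr4, a proton-sensing receptor gene, 4.99, 3.22 and 2.94 CPM. Both of these were lost in 8 of the 15 fits that leave out 1 library.

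For the departure from the midpoint, the genes with the smallest p-values are given as values, since none passed. Kank2, a gene of an actin-regulating adaptor protein, was lowest in HET, at 29.6, 23.5, 24.1, 25.4 and 23.1 CPM, against 28.3 to 30.7 CPM in WT and 30.04 to 37.9 CPM in KO. HET departed from the midpoint by -0.33 ± 0.06 (edgeR unadjusted p = 6.69e-05, adjusted p = 0.499). Meis2, a homeobox gene, had means of 16.1, 13.6 and 19.9 CPM and a departure of -0.39 ± 0.08. On the other side, Amdhd1, an enzyme gene of histidine breakdown, had 8.87, 9.43 and 6.29 CPM and a departure of 0.34 ± 0.08 (edgeR unadjusted p = 0.000607, adjusted p = 0.499). Its trend (slope -0.25 ± 0.07, edgeR adjusted p = 0.0410) was lost in 7 of the 15 fits that leave out 1 library.

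Gene lists were then read by the count of members called, beside 4.68% rising and 1.42% falling over all genes, and by the median step of their members. Over all genes tested the median slope was -0.006 and the median steps 0.007 and -0.010. Fewer cells of a type and less RNA per cell cannot be told apart in whole tissue. Among the lists used, those of fibroblasts, endothelium and macrophages, cells of the stroma, had the highest numbers of called members. Of 25 fibroblast and collagen genes 20 rose and 0 fell, with a median slope of 0.35 and median steps of 0.08 to HET and 0.63 from HET to KO. Sparc, which encodes a collagen-binding matrix protein, had 544, 560, 589, 503 and 531 CPM in WT, 694.2, 588, 720, 628 and 542 CPM in HET, and means of 545 ± 32.1, 635 ± 73.5 and 925 ± 164 CPM (SD, n = 5) in WT, HET and KO. Sparc thus overlapped between WT and HET, and its slope was 0.38 ± 0.06 (edgeR adjusted p = 0.00422). HET lay still closer to WT for the fibril collagen gene Col1a2 (means 227, 254 and 427 CPM; position 0.17) and for Col6a3 (35.8, 39.1 and 73.0 CPM; 0.12) and Col15a1 (12.9, 13.6 and 24.7 CPM; 0.09). Of this list 22 members were called without KO-738, 7 without KO-739, 4 without KO-696 and 2 with the animal number range as a term.

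Of 15 endothelial genes 10 rose and 0 fell, with a median slope of 0.36 and steps of 0.05 and 0.65. Cdh5, the cadherin of endothelial junctions, had 14.4, 14.6, 13, 12.2 and 13.8 CPM in WT, 18.2, 12.2, 14.4, 16.9 and 14.8 CPM in HET, and 20.6, 24.9, 27.1, 20.4 and 29.2 CPM in KO. All KO libraries, KO-738 included, lay above all WT and HET libraries, which overlapped. Its slope was 0.43 ± 0.06 (edgeR adjusted p = 0.00436), with HET at 0.20. Mmrn2, an endothelial matrix protein gene, had means of 9.35, 9.68 and 15.7 CPM (position 0.07), and Pecam1, an endothelial adhesion gene, 22.5, 25.8 and 41.6 CPM (0.22). Of this list 13 were called without KO-738, 4 without KO-696 and 6 with the animal number range as a term.

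Of 17 macrophage genes 10 rose and 0 fell, and here the steps were less unequal, with medians of 0.17 and 0.36. Cx3cr1, a chemokine receptor gene of tissue macrophages, had 8.45, 9.83, 7.82, 7.34 and 8.56 CPM in WT, 11.3, 9.08, 10.6, 10.2 and 10.1 CPM in HET, and 14, 13.4, 13.9, 9.93 and 14.2 CPM in KO. HET-693 alone of the HET libraries lay within the WT range, and KO-738 lay among HET. Its slope was 0.32 ± 0.05 (edgeR adjusted p = 0.00479), with HET at 0.45. Csf1r, the growth factor receptor of macrophages, had means of 18.5, 20.9 and 29.0 CPM (0.27), and Ctss, a lysosomal protease gene, 17.4, 19.5 and 24.9 CPM (0.33). Of 7 MHC class II genes 3 rose (Cd74, Ciita and H2-Eb1) and 0 fell, and H2-Eb1 was a gene in which KO-738 lay highest, at 10.5 CPM, the rest of KO being between 3.16 and 4.18 CPM. The calls of Cd74, Ciita and H2-Eb1 were lost in 8, 6 and 9 of the 15 fits that leave out 1 library, and this list had 0 called members without KO-696, 1 without KO-739 and 1 with the animal number range as a term. Of the macrophage list 13 were called without KO-738, 7 without KO-696 and 1 with the animal number range as a term.

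The smooth muscle list behaved in another way, with 0 of 13 members called by edgeR (1 at an unadjusted p under 0.05) and 0 by DESeq2. In 12 of 13 the mean was lower in HET than in WT, and in 13 of 13 it was higher in KO than in HET, with median steps of -0.33 and 0.39 and a median slope of 0.05. Relative to the WT mean, the mean log2 level of the list lay between -0.60 and -0.04 in HET, between -0.17 and 0.15 in WT and between -0.03 and 0.15 in KO, so every HET library lay below every KO library, while HET-692 and HET-718 lay within the WT range. The means of this list thus did not follow the number of alleles in 1 direction.

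**Figure D5:**
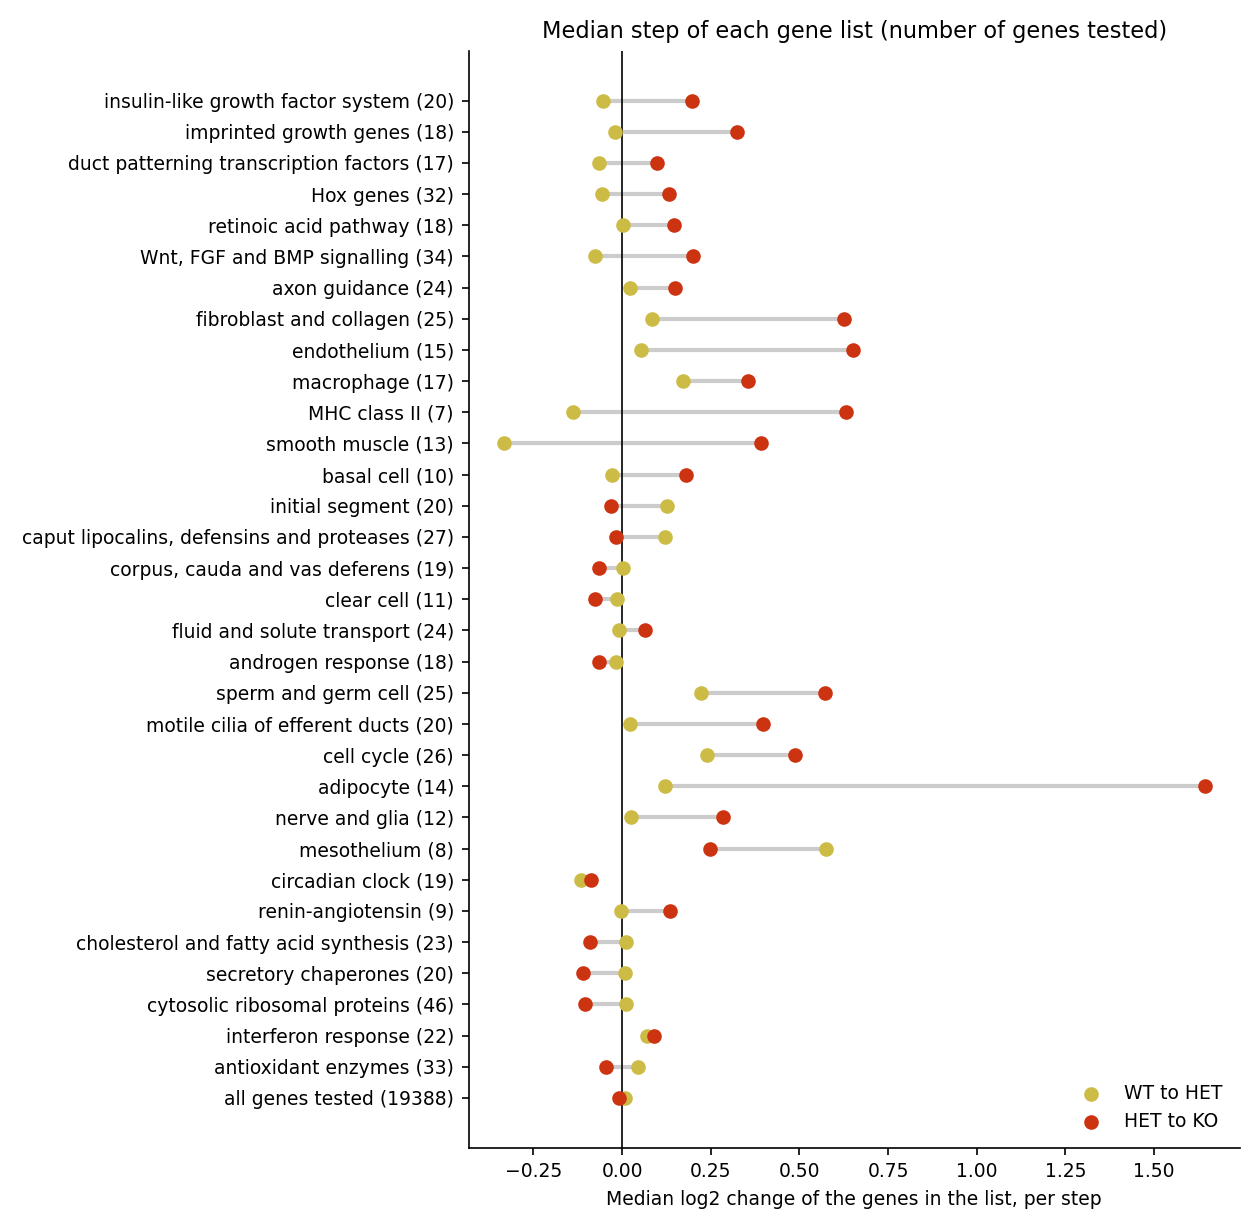
Median log2 change of the genes in each list for the step from WT to HET and for the step from HET to KO (horizontal axis), with the number of genes tested in parentheses; the skeletal muscle and PLAG family lists are left out. For fibroblast, endothelial and macrophage genes the second step is larger, while smooth muscle genes have steps of opposite sign.

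In the growth pathway for which Plag1 is known, 5 of 20 tested genes of the insulin-like growth factor system rose and 1 fell. Igf2, the target named above, was tested and was not among the called genes. Igf1, the ligand, stood at 22.1, 28.8, 25.6, 27.9 and 23.6 CPM in WT, 34.4, 33.0, 30.8, 26.2 and 34.7 CPM in HET, and 65.8, 68.9, 60.4, 32.4 and 65.2 CPM in KO. KO-738 lay within the HET range and the other KO libraries far above it, while 4 of the 5 HET libraries lay above all WT libraries. Its slope was 0.60 ± 0.09 (edgeR adjusted p = 0.00422), with 0.32 to HET and 0.88 from HET to KO. Igfbp3 and Igfbp4, which encode carriers of the ligand, had slopes of 0.28 ± 0.05 and 0.34 ± 0.06. Igf2bp2, an RNA-binding protein gene named for its Igf2 target, had a slope of 0.54 ± 0.10 (edgeR adjusted p = 0.00953), Igfbp7 rose with a slope of 0.21, and Pappa2, a protease gene that cuts binding proteins, fell with a slope of -0.56. The median step to HET over the list was -0.05 and that from HET to KO 0.20. The called members of the list, 6 in all, numbered 4 without KO-696 and 2 with the animal number range as a term. Of 18 imprinted growth genes 3 rose (Peg3, Grb10 and Sgce) and 1 fell (Plagl1). Peg3, a zinc finger gene, had means of 12.1, 12.1 and 15.8 CPM and HET at 0.004, but its call was lost in 5 of the 15 fits that leave out 1 library. Grb10, an adaptor that dampens insulin receptor signalling, was lost in 4 and Sgce in 6. Without KO-696 and with the number range as a term 0 imprinted genes were called, and without KO-739 2.

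Transcription factors that pattern the duct moved both ways. Of 17 tested, Wt1, Osr1 and Hand2 rose, and Gata3 and Evx1 fell. Wt1 stood at 1.27, 1.55, 1.25, 0.913 and 1.39 CPM in WT, 2.41, 1.37, 2.04, 2.07 and 1.89 CPM in HET, and 4.06, 4.78, 6.12, 1.79 and 5.97 CPM in KO. KO-738 and HET-693 were low within their genotypes, and the slope was 0.94 ± 0.13 (edgeR adjusted p = 0.00422). Wt1 is also a marker of mesothelium, the cell layer that covers the organ, and 3 of the 8 mesothelial genes tested rose (Msln, Wt1 and Gpm6a). Without KO-696 or without KO-739 1 mesothelial gene was called, and with the number range as a term 2. That list had medians of 0.57 for the step to HET and 0.25 for that from HET to KO. The part of mesothelium in the values of Wt1 was not tested. Gata3, a factor of the embryonic duct, fell from 46.3 ± 4.45 CPM (SD, n = 5) to 40.5 ± 0.801 in HET and 35.7 ± 5.16 in KO. Its slope was -0.19 ± 0.04 (edgeR adjusted p = 0.0238, 0.0504 without KO-694 and 0.0503 without KO-696). Of the patterning factors 2 were called without KO-696 and 3 with the number range as a term, against 5 with all libraries.

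Of 32 Hox genes, which set position along the body axis, Hoxa5, Hoxa6, Hoxc4, Hoxc6, Hoxc8 and Hoxc9 rose, and Hoxb4 and Hoxb9 fell. Of these Hoxa5 and Hoxb9 were called in each of the 15 fits that leave out 1 library, while Hoxa6 was lost in 12 and Hoxc9 in 11. The called members of the A and C clusters were thus all higher and those of the B cluster all lower, with slopes from -0.23 (Hoxb9) to 0.39 (Hoxa6). Hoxa5 ran from 5.52 to 5.99 CPM over the WT libraries, from 5.89 to 6.66 over HET and from 7.36 to 10.7 over KO, with HET at 0.14 (slope 0.34 ± 0.06, edgeR adjusted p = 0.00527). Without KO-738 14 Hox genes were called, without KO-739 4, and 2 without KO-696 and with the number range as a term. In retinoic acid metabolism 2 of 18 genes rose, Aldh1a2 and Dhrs3. Aldh1a2, which encodes an enzyme that makes retinoic acid, had 16.0, 16.0, 17.8, 17.2 and 17.7 CPM in WT, 21.9, 17.2, 20.2, 16.9 and 21.2 CPM in HET, and 32.4, 25.7, 33.6, 24.4 and 39.6 CPM in KO. KO was above all other libraries, and the slope was 0.44 ± 0.06 (edgeR adjusted p = 0.00422). Of the retinoic acid genes 1 was called without KO-696 and 1 with the number range as a term.

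Of 34 genes of Wnt, FGF and BMP signalling, the Wnt antagonist genes Sfrp1 and Dkk2 and the growth factor genes Fgf1 and Fgf10 rose, and Sfrp2 fell. Sfrp1 and Sfrp2, secreted Wnt antagonists of the same family, thus had slopes of opposite sign, and Sfrp1 had means of 38.5, 42.9 and 62.8 CPM with HET at 0.22, where Sfrp2 had HET at 0.80. Fgf10, a stromal growth factor gene, had means of 2.94, 3.23 and 5.04 CPM (0.17). Of the signalling genes 2 were called without KO-696 and 1 with the number range as a term, against 5 with all libraries. Of 24 axon guidance genes the ligand gene Slit3 and the receptor genes Robo4, Nrp1 and Ephb2 rose, and Slit1, a ligand gene like Slit3, fell. These calls were lost in 12 (Slit3), 8 (Nrp1) and 7 (Ephb2) of the 15 fits that leave out 1 library. The guidance list had 2 called members without KO-696, 3 without KO-739 and 2 with the number range as a term.

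The lists of the duct epithelium differed in how many members were called. Of 27 caput lipocalins, defensins and proteases 0 were called, with a median slope of 0.065, and of 10 basal cell genes 0. At an unadjusted p under 0.05 edgeR gave 8 and 4 of these genes. The called numbers were 4 and 0 without KO-738, and 1 and 1 by DESeq2. Of 20 genes listed for the initial segment Nell2, Spag11b and Sult1e1 rose, the first and last with calls lost in 7 and 6 of the 15 fits that leave out 1 library. The list is not limited to genes that its epithelium makes, and which cells the Nell2 reads came from was not tested. Without KO-696 and with the number range as a term 1 gene of this list was called. Spag11b, an abundant epididymal defensin-like gene that lies beside a similar copy, Spag11a, between which reads could be split, stood at 3674, 4034, 3898, 3419 and 4005 CPM in WT. Its HET libraries ran from 4299 to 5003 CPM and its KO libraries from 4556 to 6548 CPM. Every HET and KO library lay above every WT library, and the steps were alike, at 0.31 and 0.29 (position 0.52). The slope was 0.30 ± 0.05 (edgeR adjusted p = 0.00527). Upk1b, a urothelial membrane gene of the distal duct, rose in the same shape from 30.6 ± 2.81 to 37.4 ± 3.27 and 45.8 ± 7.95 CPM (SD, n = 5; position 0.50). Krt20, a keratin gene of the distal list, had 0.304, 0.722 and 0.988 CPM with HET at 0.73. Slc26a3, an anion exchanger gene, and Gpx3, a secreted glutathione peroxidase gene, fell, with calls lost in 12 and 14 of the 15 fits that leave out 1 library. Of the 19 distal genes tested 4 were called, against 2 without KO-696 and 0 with the number range as a term.

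Of 11 clear cell genes Atp6v1c2, a proton pump subunit gene, and Dmrt2 fell, with calls lost in 12 and 7 of the 15 fits that leave out 1 library. Without KO-696 or without KO-739 0 clear cell genes were called, and 1 with the number range as a term. Among 24 genes of fluid and solute transport, the water channel gene Aqp5 fell from 1.53 ± 0.186 CPM (SD, n = 5) to 1.13 ± 0.136 and 0.921 ± 0.127 (slope -0.37 ± 0.07, edgeR adjusted p = 0.0113; position 0.60). Aqp7 and Car3, genes that fat cells also express, rose. With the number range as a term 0 transport genes were called, and without KO-738 10. Of 33 antioxidant genes Gpx6 and Sod3 rose, and Gpx3 and Gpx4 fell. The calls of Sod3 and Gpx4 were lost in 12 and 13 of the 15 fits that leave out 1 library, and that of Gpx6 in 1. Of 18 androgen response genes Sord rose and Azgp1 fell, with calls lost in 5 and 6 of these fits. Of 46 ribosomal protein genes Rpl27 and Rps2 fell, and of 20 secretory chaperone genes Dnajb9 fell, with calls lost in 3, 12 and 7. Each of the antioxidant, androgen, ribosomal and chaperone lists had 0 called members without KO-696 and with the number range as a term. Without KO-739 the called members were 1, 1, 1 and 0. Of 23 genes of cholesterol and fatty acid synthesis 0 were called by edgeR (4 at an unadjusted p under 0.05), against 1 by DESeq2.

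Clock genes moved both ways. The HET mean lay between those of WT and KO in 14 of 19 clock genes, against 8414 of 19388 genes tested. This was not particular to the clock list. It held for 13 of 15 endothelial and 23 of 26 cell cycle genes, but for 1 of 13 smooth muscle genes. Of the 19, Arntl and Npas2 rose, and Per2, Dbp, Tef and Ciart fell. Dbp, a transcription factor gene driven by the clock, had 16.9, 14, 20.003, 14.8 and 12.8 CPM in WT, 12.5, 9.98, 11.4, 13 and 11.5 CPM in HET, and 7.62, 7.80, 7.87, 13.3 and 9.88 CPM in KO. HET overlapped WT only through WT-726 and HET-718, while KO-738 lay above every HET library. Its slope was -0.38 ± 0.07 (edgeR adjusted p = 0.0112), with HET at 0.56. Arntl, which encodes the activating partner of the clock, moved oppositely, with 13.2, 12.6, 12.4, 12.2 and 13.2 CPM in WT, 15.9, 19.2, 15, 13.9 and 16.6 CPM in HET, and 18.2, 18.6, 20.9, 14.3 and 17.5 CPM in KO. All HET and KO libraries lay above all WT libraries (slope 0.25 ± 0.05, edgeR adjusted p = 0.0119; position 0.70). Per2, a repressor gene of the clock, had means of 14.5, 11.7 and 9.42 CPM (position 0.50). Of this list 10 were called without KO-738, 4 without KO-739, 3 without KO-696 and 0 with the animal number range as a term. The labels give no time of day for collection, so genotype and hour of collection cannot be told apart here.

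Skeletal muscle, fat and germ cells lie outside the duct wall or in its lumen, and their genes were listed too. Of 11 skeletal muscle genes 7 rose, and the steepest rising slopes of all genes called were those of Myl1, Myh1, Trdn, Myh8 and Myh2. Myh1 stood at 0.307, 0.301, 1.82, 0.292 and 0.204 CPM in WT, 0.323, 0.398, 0.247, 11.5 and 0.430 CPM in HET, and 2.90, 2.10, 1.39, 1.94 and 898 CPM in KO. KO-739 carried the list: without it edgeR called 0 members. Without KO-696 1 member was called. The myosin heavy chain genes are similar in sequence, so reads may be shared between them. Of 14 adipocyte genes Lpl, Cd36 and Car3 rose, and the mean log2 level of the list relative to WT ran from -0.21 to 2.95 in KO, highest in KO-695, and from -0.69 to 1.0 in WT. The call of Lpl was lost in 0, that of Cd36 in 1 and that of Car3 in 6 of the 15 fits that leave out 1 library, and with the number range as a term 0 adipocyte genes were called. Among the KO libraries Car3 was highest in KO-739, which carried the skeletal muscle list, and which cells its reads came from was not tested. Of the 25 genes listed for sperm and germ cells 7 rose, and the same measure was highest in KO-696, at 1.64, and stood at 1.02 in KO-695 and 0.95 in KO-694, but -0.36 in KO-738 and 0.21 in KO-739. In HET it was 0.59 in HET-692 and at most 0.20 in the other 4 HET libraries. The libraries with the highest germ cell level were thus 4 of the 5 numbered below 700, and 0 germ cell genes were called without KO-696 or with the number range as a term. Of 20 genes of motile cilia, which the efferent ducts carry, Tekt1 and Tekt2, which encode tektins of the axoneme, rose, with calls lost in 12 and 4 of the 15 fits that leave out 1 library. The mean log2 level of the cilia list relative to WT was 0.82 in KO-695 and 0.87 in KO-696, 2 of the libraries high for germ cell genes, against -0.24 to 0.25 in the other KO, -0.20 to 0.29 in HET and -0.17 to 0.23 in WT. Sperm carry an axoneme as well, and the part of germ cells in these values was not tested. Of 12 nerve and glia genes the sodium channel gene Scn7a and the myelin gene Pmp22 rose, with calls lost in 11 and 13 of these fits. Without KO-696 and with the number range as a term 0 genes of the cilia list and 0 of the nerve list were called. Of 26 cell cycle genes 0 were called by edgeR (19 at an unadjusted p under 0.05) and 13 by DESeq2, with a median slope of 0.40, and without KO-738 edgeR called 12. What part these cells have in the trends of other genes was not tested.

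Of 22 interferon response genes Rsad2, Gbp2, Gbp3 and Tap1 rose. Without KO-696 and with the number range as a term 0 of these were called, and without KO-739 1. Rsad2, an antiviral gene, had means of 2.90, 2.90 and 5.31 CPM, so the step to HET was 0.01 and that from HET to KO 0.87 (slope 0.45 ± 0.10, edgeR adjusted p = 0.0170, and 0.0636 without KO-696). Tap1, a peptide transporter gene, had 1.113, 1.112 and 2.23 CPM, but its call was lost in 7 of the 15 fits that leave out 1 library, and those of Gbp2 and Gbp3 in 5 and 13. Ren1, which encodes renin and has a near-identical copy in some mouse strains, was the 1 called gene of 9 in the renin-angiotensin list. It stood at 0.154, 0.251, 0.393, 0.256 and 0.204 CPM in WT, 0.265, 0.651, 0.317, 0.473 and 0.301 CPM in HET, and 1.97, 1.82, 4.02, 0.313 and 5.70 CPM in KO. KO-738 lay within the HET range, and the other KO libraries above every HET and WT library. The slope was 1.90 ± 0.31 (edgeR adjusted p = 0.00528), with HET at 0.19.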

How the data were processed

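Whole epididymis was sequenced from 15 mice, 1 library per animal. Per the labels' protocols, the organ was opened in saline to rinse out sperm, RNA was DNase treated, and a stranded mRNA kit was used on 2 µg. The deposited values are raw counts per NCBI Gene ID made by the authors. Per the submitters' processing notes, FastQC, HISAT2 2.0.5, featureCounts of Subread 1.4.6p5 and build GRCm38.p6 were used. The strand setting and annotation release are not given in the sources used here, so overlapping or near-identical genes are uncertain. RefSeq's gene table of that build named 40290 of 41591 IDs (96.9%), and the unnamed ones held 0.163% to 0.208% of counts.

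The counts were fitted in edgeR 4.0.16 (R 4.3.3; TMM, filterByExpr by genotype, robust quasi-likelihood), once with lost alleles as a number (13 residual degrees of freedom) and once with a mean per genotype (12). Tests were two-sided, with Benjamini-Hochberg adjustment over 19388 genes and a threshold of 0.05. CPM were computed with TMM library sizes. Libraries held 20.3 to 42 M counts, and the biological coefficient of variation, 16.6%, exceeds counting noise for all but low genes. The scripts were tested on simulated data.

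Named genes are Plag1 and, with at least 1 CPM in a genotype and an ordinary symbol, the 5 largest slopes and the 4 smallest p-values in each of 3 position classes (cuts 0.25 and 0.75) each way, the 5 smallest departure p-values each way, genes in complete order, and up to 4 members of each of 34 lists. Other called list members are named too, after their values were seen. The members and lists were chosen with earlier results of these data known. Alternatives were DESeq2 1.42.0, limma 3.58.1 voom, other scaling and filters, other allele codings, the animal number range and leaving out libraries. Plots were drawn with matplotlib 3.10.9 and tables made with pandas 2.3.3 under Python 3.11.15.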

Additional observations from a re-analysis of the deposited data

Results flagged for a closer look

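Within each genotype of 5 animals, the highest or lowest library was compared with the rest (gap over range above 0.71, which chance exceeds in about 1 of 20 groups), and 38 of 345 groups checked had such a library. None of these gaps was tested for its source. Over the rising genes HET-692 lay at position 0.512, against 0.166 to 0.229 in the other HET libraries.

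KO-738 held 10 of the 38. It was low among the KO libraries for Tenm3 (10.02 CPM), Scube2 (1.22 CPM), Igf1 (32.4 CPM), Igf2bp2 (2.32 CPM) and Cx3cr1 (9.93 CPM). It was high for Gpx3 (3474 CPM), Treh (2.63 CPM), Azgp1 (5.42 CPM), Amdhd1 (7.30 CPM) and H2-Eb1 (10.5 CPM). In each of these genes but H2-Eb1, KO-738 lay toward WT.

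Skeletal muscle genes stood out in 1 library of each genotype. KO-739 held 268 CPM of Myl1, 898 CPM of Myh1, 109 CPM of Trdn, 158 CPM of Myh8 and 231 CPM of Myh2. HET-718 held 2.98 CPM of Myl1, 11.5 CPM of Myh1, 1.71 CPM of Trdn, 3.27 CPM of Myh8 and 5.82 CPM of Myh2. WT-720 held 0.929 CPM of Myl1, 1.82 CPM of Myh1, 1.07 CPM of Myh8 and 0.929 CPM of Myh2.

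The remaining gaps were in single genes. KO-739 was low for Gata3 (26.7 CPM) and Rpl27 (146 CPM), and KO-695 for Dnajb9 (118 CPM). HET-692 was high for Fabp9 (5.97 CPM), HET-735 for Gpx6 (68.0 CPM) and HET-693 for Tmem254c (4.01 CPM). WT-719 was high for Lpl (18.4 CPM) and Car3 (19.96 CPM), 2 genes that fat cells express. KO-739, which was high for skeletal muscle genes, was also high for Car3 (802 CPM). WT-726 was low for Ephb2 (3.14 CPM) and high for Scn7a (10.9 CPM). HET-692 (63.2 CPM) and WT-720 (56.6 CPM) were high for Pmp22.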

How the results depend on the processing

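The counts of genes depend on single animals. The signs of the slopes were followed only in genes called with all libraries and in named genes. The fits share most of their libraries, so the agreement of signs is no separate check. With 1 library left out, trend genes ran from 240 to 2451, rising ones from 203 to 1722 and falling ones from 37 to 729. In the same fits genes departing from the midpoint ran from 0 to 1, genes called from WT to HET were 0 throughout, and those from HET to KO ran from 0 to 2443. The median HET position ran from 0.178 to 0.277 for rising and from 0.214 to 0.445 for falling genes. DESeq2 called 1877 trend genes (589 falling), 25 departures, 1 gene from WT to HET and 1242 from HET to KO. Without a filter on low counts 161 genes fell, and limma voom called 574 rising. With quality weights voom called 448 (333 rising, 115 falling), 1 departure and 1907 from HET to KO. With the animal number range as a term 207 were called (186 rising, 21 falling). With animals numbered 700 and above alone, where KO-738 and KO-739 are the only KO animals, trend genes and genes from HET to KO were 0 each. Without HET-693 and KO-738, 2345 were called (1658 rising, 687 falling) and 1660 from HET to KO, with a falling position of 0.195. Coding HET as WT gave 2162 (1469 rising, about 6.9e+02 falling), and coding HET as KO gave 0. Leaving out KO-738 and KO-739, chosen after seeing the data, gave 2240 (1591 rising, 649 falling), 2 departures and 3082 from HET to KO. The cause of these shifts was not tested.

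The rising share of the calls, 76.7%, was 68.6% by DESeq2, 66.5% by voom, 82.7% with upper quartile scaling and 89.9% with the number range. Scaling moved the median slope of all genes by at most 0.02. Of 3577 slopes of 124 named genes under the alternatives, 2632 kept direction and call, 942 lost the call, 2 gained it and 1 changed sign: Plagl2, at 0.0042 among animals numbered 700 and above. No paired analysis was possible because the animal numbers are not shared between genotypes. Depth limits genes such as Evx1os, with 1 to 4 counts in KO. After thinning every library to the smallest total, also added after seeing the data, 950 genes were called.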
